A study of Homo sapiens with 8 samples.

Results

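The ZNF genes of chromosome 19 were taken as all protein-coding genes on that chromosome whose symbol is ZNF followed by a number, in GENCODE release 44. They were 249 of the 20033 protein-coding genes with an annotated 5′ end. H3K4me3 ChIP-seq peaks were examined at their promoters in 6 libraries of U2OS, a human osteosarcoma cell line. The libraries came from 3 WT clones and 3 ZBTB48 KO clones, each library from a different clone, and all 6 clones carried the same treatment of 250 U/ml IFNγ for 24 h. ZBTB48 is a zinc finger protein that binds telomeric repeats and a set of gene promoters, and the comparison of genotypes asks which promoters carry the mark in its presence and absence. The KO clones were clonal lines described earlier by the same laboratory, so clone and genotype effects can only be separated through the 3 clones on each side. No untreated library was among the samples, and the 2 WT input libraries of the 8 samples were not used here.

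Most of these genes encode Krüppel-type C2H2 zinc finger proteins, and many carry a KRAB domain, which recruits the corepressor TRIM28 (KAP1) and with it the H3K9 methyltransferase SETDB1 and HP1 proteins. KRAB zinc finger proteins are known for binding and silencing retrotransposons. They arose by repeated tandem duplication, and for this reason stand in clusters on chromosome 19, the older and the primate-specific copies often in different clusters. H3K4me3, the trimethylation of histone H3 at lysine 4, marks promoters that are active or poised. Bodies and 3′ ends of ZNF genes are known to carry H3K9me3 in many cell types.

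The promoters were read in their place along the chromosome. Runs of ZNF genes whose neighbouring 5′ ends lay at most 500 kb apart were taken as clusters where they held at least 5 genes. This gave 10 clusters with 235 of the 249 genes, numbered here from the end of the short arm, and left 14 genes outside clusters. Cluster 4, the stretch of the short arm next to the centromere (GRCh38, chr19:19668839-24087187, from ZNF101 to ZNF254), is the one on which most of the results below turn. Many of its 37 genes descend from recent duplications. To show how alike their promoters can be, the bases upstream of the 5′ end of 6 of them are given 5′ to 3′ in the direction of the gene, with each CpG dinucleotide in capitals. The 6 were chosen after their calls were seen, to span genes called in all, some and none of the libraries. The sequences are from RefSeq (GRCh38.p14), up to 250 bases each, and stop before the first annotated exon.
ZNF91, minus strand, chr19:23395472-23395721, a peak in 6 of 6 libraries.
ZNF91: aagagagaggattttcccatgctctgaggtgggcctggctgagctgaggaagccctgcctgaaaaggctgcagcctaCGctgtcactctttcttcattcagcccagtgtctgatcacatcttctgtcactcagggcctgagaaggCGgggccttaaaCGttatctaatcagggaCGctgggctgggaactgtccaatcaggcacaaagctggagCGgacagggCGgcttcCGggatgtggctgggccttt
ZNF726, plus strand, chr19:23914636-23914875, a peak in 4 of 6 libraries.
ZNF726: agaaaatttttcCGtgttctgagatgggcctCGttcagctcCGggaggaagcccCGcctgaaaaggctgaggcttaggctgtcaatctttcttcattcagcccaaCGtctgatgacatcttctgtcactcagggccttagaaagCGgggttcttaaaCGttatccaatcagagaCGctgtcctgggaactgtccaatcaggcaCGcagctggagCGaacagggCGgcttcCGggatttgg
ZNF100, minus strand, chr19:21767580-21767829, a peak in 3 of 6 libraries.
ZNF100: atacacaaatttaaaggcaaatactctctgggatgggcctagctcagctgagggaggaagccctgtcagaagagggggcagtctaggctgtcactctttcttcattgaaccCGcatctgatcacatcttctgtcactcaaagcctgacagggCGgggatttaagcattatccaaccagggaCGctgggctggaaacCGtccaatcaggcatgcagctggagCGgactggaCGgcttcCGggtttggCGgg
ZNF93, plus strand, chr19:19900696-19900912, a peak in 1 of 6 libraries.
ZNF93: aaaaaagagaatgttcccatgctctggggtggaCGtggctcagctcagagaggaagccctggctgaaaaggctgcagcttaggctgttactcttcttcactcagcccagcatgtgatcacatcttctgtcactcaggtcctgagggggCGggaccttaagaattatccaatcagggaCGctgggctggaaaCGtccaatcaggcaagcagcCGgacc
ZNF681, minus strand, chr19:23758892-23759141, a peak in 0 of 6 libraries.
ZNF681: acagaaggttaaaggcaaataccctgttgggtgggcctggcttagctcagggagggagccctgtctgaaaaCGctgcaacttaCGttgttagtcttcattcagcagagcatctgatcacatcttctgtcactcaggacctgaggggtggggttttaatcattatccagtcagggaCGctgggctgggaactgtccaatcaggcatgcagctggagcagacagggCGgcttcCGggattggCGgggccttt
ZNF724, minus strand, chr19:23250395-23250644, a peak in 0 of 6 libraries.
ZNF724: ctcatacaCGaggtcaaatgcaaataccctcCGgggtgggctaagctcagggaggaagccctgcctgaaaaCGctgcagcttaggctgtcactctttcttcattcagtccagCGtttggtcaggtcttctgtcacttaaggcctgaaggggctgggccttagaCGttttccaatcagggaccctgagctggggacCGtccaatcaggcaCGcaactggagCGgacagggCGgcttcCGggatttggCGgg

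Over the 250 bases upstream, any 2 of these 6 promoters matched in between 73.5% (ZNF726 and ZNF724) and 85.1% (ZNF91 and ZNF726) of the columns of a global alignment. The promoter of ZNF91, marked in every library, matched that of ZNF681, marked in none, in 80.4% of columns. Against the promoters of ZNF582 and ZNF581 in cluster 9, which were marked in every library, the 6 matched in only 43.0% to 51.9%. The printed stretches hold between 5 CpG (ZNF93, 217 bases shown) and 12 CpG (ZNF726, 240 bases shown). The always-marked ZNF91 has 7, and the never-marked ZNF681 and ZNF724 have 6 and 11. Number of CpG and presence of a peak therefore did not run in the same order among these 6.

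The 6 peak lists hold no read counts. The study's methods give only a range of reads per ChIP-seq sample, so the depth of each single library is unknown here. A missing peak says that none was called, not that the mark was absent. Lists held 21712 to 26370 peaks on chromosomes 1 to 22, X and Y. Peak width set WT replicates 1 and 2 apart from the other 4 lists. Their median widths were 2297 and 2353 bp, against 1275 to 1487 bp in WT replicate 3 and the KO libraries. Median fold enrichment over background was 13.4 and 14 in the former and 4.19 to 4.65 in the latter. A cut at a fold enrichment of 4, used below as an alternative, falls unequally on these lists. In the latter, peaks near that value stood at percentiles 34.3 to 46.0. In WT replicates 1 and 2, peaks of 4.70 and 4.36 stood at percentiles 25.3 and 22.4. The input libraries carry the clone numbers of WT replicates 1 and 2, and the part of this in the difference between lists was not tested. For this reason peak length was also compared between the KO libraries and WT replicate 3 by itself, whose lists are of like kind. No 2 lists shared more than 2 peaks with identical ends. Of the mesenchymal markers VIM, SPARC and RUNX2 had a promoter peak in all 6 libraries while TWIST1 and COL1A2 had none. Of the markers of other cell types PTPRC, CD3E and ALB had none, and EPCAM, an epithelial gene, had a peak in all 6.

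Calls were made from the MANE Select 5′ end: a promoter counted as called where at least 1 bp of a peak fell inside the 1 kb before or after it. Called ZNF promoters of chromosome 19 numbered 204, 202 and 209 in the 3 WT libraries and 204, 200 and 200 in the 3 KO libraries. The mean was 205 ± 3.61 in WT and 201 ± 2.31 in KO (SD, n = 3 each). The difference of 3.67 promoters did not exceed the spread between clones (two-sided exact permutation test, p = 0.3, where 0.1 is the smallest p that 3 against 3 can give). It was 1.67 promoters without WT replicate 3, 1.33 outside cluster 4 and 9.33 with only peaks of fold enrichment of at least 4 kept, and did not pass in any of these (exact permutation p = 0.6, 0.7 and 0.3). Most of the family was marked in both genotypes.

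A set of 199 of the 249 promoters (79.9%) was called in all 6 libraries, against 65.1% of all protein-coding promoters. Another 10 (4.02%) were called in 1 to 5 libraries, against 4.59% of all promoters, and 40 (16.1%) in none, against 30.3%. No ZNF promoter of chromosome 19 was called in 3 of 3 WT and 0 of 3 KO libraries, where 0.105% of all promoters were. None was called in 3 of 3 KO and 0 of 3 WT libraries, where 0.02% of all promoters were. With 249 genes these background shares correspond to less than 1 gene, so the counts of 0 are near the background. The first of them rests on single libraries. Without KO replicate 1, ZNF738 and ZNF726 would be called in WT alone, and without WT replicate 2, ZNF132 would be.

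**Figure D1:**
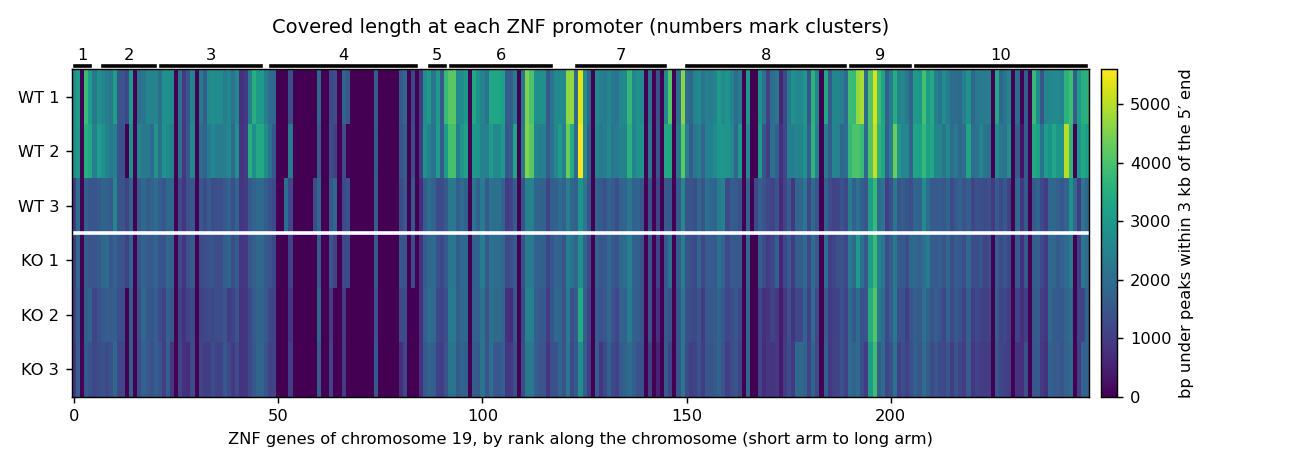
Covered length, the number of bp under H3K4me3 peaks within 3 kb on either side of the 5′ end, at each of the 249 ZNF promoters (columns, in order along chromosome 19) in the 6 libraries (rows, 3 WT above the white line and 3 ZBTB48 KO below); dark purple is 0 bp and the black bars mark the 10 clusters. Cluster 4 is mostly dark in all 6 rows, and WT replicates 1 and 2 are brighter than the other 4 rows along the whole chromosome.

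The family was marked more often than its neighbours on the same chromosome. Over the 6 libraries 81.6% ± 1.35 of the ZNF promoters were called (SD, n = 6), against 62.96% ± 1.00 of the 1227 other protein-coding promoters of chromosome 19. The difference of 18.6 percentage points had the same sign in 6 of 6 libraries (exact sign-flip permutation test over libraries, p = 0.031, the smallest it can give, and 0.0938 after Benjamini-Hochberg adjustment over 6 tests). Such a test shows that the difference is stable over libraries, since the same promoters are read in each.

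Against the 266 ZNF genes on other chromosomes, of which 87.6% ± 0.476 were called, the chromosome 19 genes were lower by a mean difference of -6.00 percentage points in 6 of 6 libraries (exact sign-flip permutation test, p = 0.031, adjusted p = 0.0938). This difference turned with the choice of genes. For the 212 genes outside cluster 4 it was 2.97 percentage points in the other direction. That set was chosen after the calls in cluster 4 were seen to be low, so its value is a description with no test. It also changed sign, to 2.305 percentage points, when only peaks of fold enrichment of at least 4 were kept (exact permutation p = 0.5). That cut falls unequally on the lists.

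Along the chromosome the clusters were marked unequally. Clusters 5 (ZNF302 to ZNF792, 5 genes) and 9 (ZNF628 to ZNF835, 16 genes) were called in full in every library. Clusters 3 (ZNF653 to ZNF791) and 6 (ZNF565 to ZNF573) each had 24 of 26 promoters called in every library, the same number in WT and KO. Cluster 8 (ZNF175 to ZNF331) had 36 of 40 called in 5 libraries and 37 in WT replicate 3. In cluster 10 (ZNF264 to ZNF446), nearest the end of the long arm, 39 of 43 were called in 5 libraries and 41 in WT replicate 3. Cluster 7 (ZNF575 to ZNF180) had 19 of 23 called in every library, cluster 2 (ZNF414 to ZNF846) had 12 or 13 of 14, and cluster 1 (ZNF554 to ZNF77) had 4 of 5.

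Cluster 4 stood far below the rest. Of its 37 promoters 12, 11 and 14 were called in the WT libraries and 12, 9 and 9 in the KO libraries. The mean share was 30.2%, against 90.6% of all other ZNF promoters of the chromosome. The difference of -60.4 percentage points ranged from -65.8 to -54.1 over the libraries (exact sign-flip permutation test, p = 0.031, adjusted p = 0.0347 over the 10 clusters). In 9 of the 10 clusters the difference from all other ZNF genes kept its sign in all 6 libraries, cluster 7 being the exception. These comparisons share genes, because cluster 4 lowers the share of the others in each of the remaining 9. The same promoters are read in every library, so the test shows stability over libraries and nothing about the spread over genes. Cluster 1, with 4 of 5 promoters called and a difference of only -1.63 percentage points, reached the same exact sign-flip p of 0.031.

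**Figure D2:**
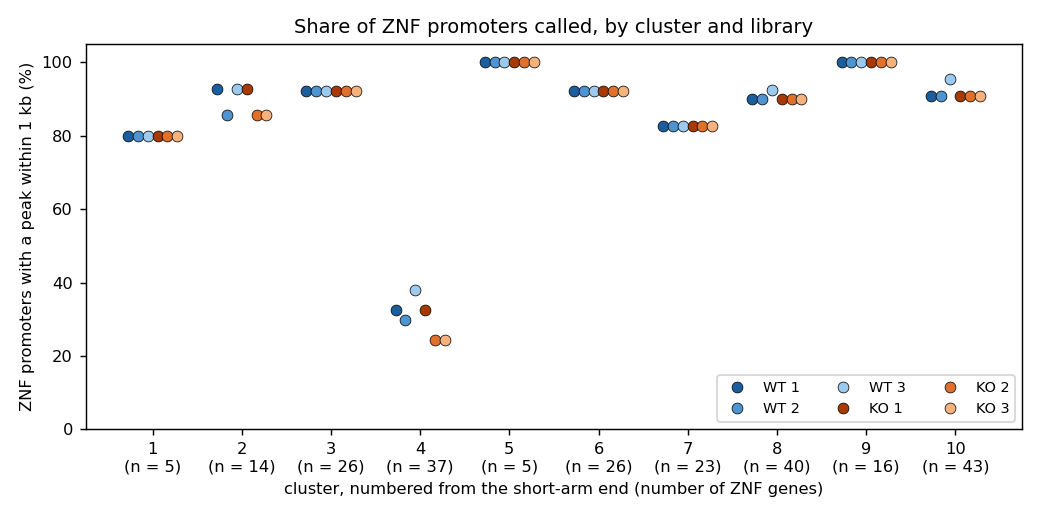
Share of ZNF promoters called, that is with an H3K4me3 peak inside 1 kb of the start (vertical axis, percent) in each of the 10 clusters (horizontal axis, with the number of genes), 1 point per library, blue for WT and orange for ZBTB48 KO. Cluster 4 lies lowest in all 6 libraries, with 9 to 14 of 37 promoters called, and every other cluster lies at 80% or above.

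Within cluster 4 the marked genes were scattered among unmarked ones. Called in all 6 libraries were ZNF101, ZNF14, ZNF682, ZNF430, ZNF708, ZNF429, ZNF492, ZNF91 and ZNF675. A second group of 5 was called in some libraries (ZNF93, ZNF85, ZNF738, ZNF100 and ZNF726). The 23 called in none were ZNF506, ZNF253, ZNF90, ZNF486, ZNF737, ZNF626, ZNF66, ZNF714, ZNF431, ZNF493, ZNF43, ZNF208, ZNF257, ZNF676, ZNF729, ZNF98, ZNF99, ZNF723, ZNF728, ZNF730, ZNF724, ZNF681 and ZNF254. At the unmarked genes no called peak lay just outside the window. Signal too weak to be called cannot be seen in the lists. Over the 23 the closest peak in any library lay 22970 bp from the 5′ end, and the median distance to the nearest peak was 68264 bp in KO replicate 1 and 113770 to 120242 bp in the other 5 libraries. For ZNF730 and ZNF254 another annotated 5′ end of the gene was called in all 6 libraries.

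Cluster 4 is also the longest and the poorest in peaks. It spans 4.42 Mb with 8.37 ZNF genes and a mean of 3.85 peaks per Mb, against 12.6 to 43.1 peaks per Mb in the other 9 clusters. Between 57.1% (KO replicate 1) and 73.7% (WT replicate 3) of the 14 to 21 peaks in it lay at a ZNF promoter. It holds only 3 other protein-coding genes, 1 of them called in all 6 libraries and 2 in none. The authors removed reads that map to several places, which could hide peaks in duplicated sequence. Exact repeats were rare in these windows. Of the 100-base words in the 2 kb window around each 5′ end, no member of cluster 4 had more than 1.998% that occur elsewhere in GRCh38, and the median was 0% both in the 9 always called and in the 23 never called. Over all 249 ZNF promoters the highest share was 15.7%. Near-identical words with single mismatches were not counted, and their part in the missing peaks was not tested.

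The 9 cluster 4 promoters called in all libraries carried shorter marks. ZNF101, at the end of the cluster away from the centromere, had 1973, 2095 and 1417 bp under peaks within 3 kb in WT and 1441, 1213 and 1095 bp in KO. For ZNF91, a repressor of SVA retrotransposons in great apes, the covered length was 1530, 1441 and 1252 bp in WT and 1501, 1235 and 733 bp in KO, with the genotypes overlapping. ZNF430, the longest of the cluster, had 1877, 1644 and 1891 bp in WT and 1704, 1875 and 1684 bp in KO, so that WT replicates 1 and 2 did not stand out at this promoter as they did elsewhere. Over the 9 promoters the mean covered length was 1596 ± 136 bp in WT and 1274 ± 124 bp in KO (SD, n = 3 each), or 79.8% in KO of the WT value. Over the 190 always-called promoters outside the cluster it was 2324 ± 558 and 1532 ± 124 bp, or 65.9%. The order of these shares turned against WT replicate 3 alone, where the KO mean was 88.6% of its value in cluster 4 and 91.2% outside.

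The 10 promoters called in 1 to 5 libraries are all named here, after their values were seen. Cluster 4 holds 5 of them. WT replicate 3 called all 10, WT replicate 1 and KO replicate 1 called 5 each, WT replicate 2 called 3, and KO replicates 2 and 3 called 1 each. The counts of the genotypes overlapped, and no promoter separated all WT from all KO clones.

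ZNF93, a repressor of LINE-1 elements, had 2032 bp covered in WT replicate 3 (peak chr19:19900255-19902286, over the 5′ end) and 0 bp in the other 5 libraries. That peak was of middle strength in its list, at percentile 49.9 by fold enrichment. ZNF85, which lies in the same cluster, had 1296 bp in WT replicate 3 alone, at percentile 83.5 by fold enrichment. By −log10 q both peaks ranked lower in that list, at percentiles 35.8 (ZNF93) and 37.8 (ZNF85). Outside cluster 4, ZNF578 (1233 bp) and ZNF154 (982 bp), whose promoter is often hypermethylated in tumours, were likewise called in WT replicate 3 alone. Their peaks stood at percentiles 46.1 and 37.5 by −log10 q. The promoters called in WT replicate 3 and in no other library are 4 of 249 (1.61%), against 0.459% of all promoters. ZNF132 had 1631 bp in WT replicate 1, 1939 bp in WT replicate 3 and 0 bp in the rest.

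ZNF738 and ZNF726 were called in all 3 WT clones and in KO replicate 1, and not in KO replicates 2 and 3. This pattern took in 2 of 249 promoters (0.803%), against 0.29% of all promoters. ZNF738 had 1313, 1050 and 1858 bp in WT and 1149, 0 and 0 bp in KO. ZNF726 had 1222, 1283 and 1552 bp in WT and 1354, 0 and 0 bp in KO. The peaks of KO replicate 1 were of the same size as those of the WT clones, so the genotypes overlapped at both promoters. By −log10 q these were among the lower peaks of their lists, at percentiles 22.3 to 28.9 for ZNF738 and 29.0 to 39.4 for ZNF726. ZNF100 and ZNF177, the latter in cluster 2, shared another pattern, with a peak in WT replicates 1 and 3 and KO replicate 1. ZNF100 had 1492, 0 and 1400 bp in WT and 1280, 0 and 0 bp in KO, and ZNF177 had 1179, 0 and 1156 bp in WT and 1078, 0 and 0 bp in KO. ZNF814 in cluster 10 went the other way, with 0, 266 and 917 bp in WT and 782, 746 and 766 bp in KO. Its peaks did not reach the 5′ end and began 25 to 178 bp downstream of it. The peak of WT replicate 2 there was weak, at percentile 6.28 by −log10 q.

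**Figure D3:**
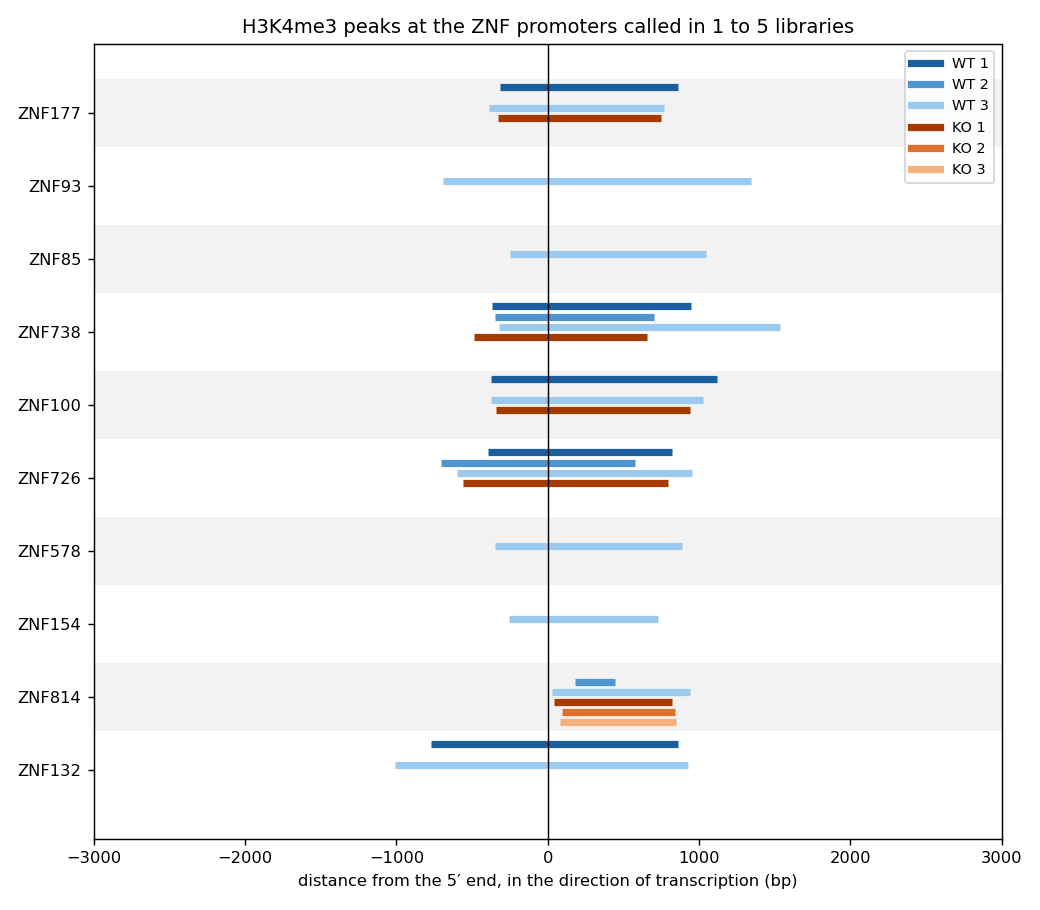
H3K4me3 peaks (bars) within 3 kb of the 5′ end of the 10 ZNF genes called in 1 to 5 libraries, drawn in the direction of transcription (horizontal axis, bp from the 5′ end), 1 line per library, blue for WT and orange for ZBTB48 KO. WT replicate 3 has a bar in all 10 rows, KO replicates 2 and 3 only in ZNF814, and the bar of WT replicate 2 at ZNF814 is much shorter than the others of that gene.

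Outside cluster 4, 17 promoters were called in no library. They were ZNF556, ZNF560, ZNF491, ZNF763, ZNF382, ZNF875, ZNF404, ZNF233, ZNF112, ZNF229, ZNF880, ZNF534, ZNF677, ZNF587B and ZNF418 in clusters and ZNF536 and ZNF541 outside them. In 4 of these (ZNF536, ZNF875, ZNF404 and ZNF587B) another annotated 5′ end of the same gene was called in all 6 libraries. ZNF536, a regulator of neuronal differentiation, had peaks that began downstream of the 5′ end beyond 1 kb and ran past the 3 kb limit, with 1006, 1044 and 720 bp in WT and 806, 797 and 801 bp in KO. It was the only one of the 40 uncalled promoters with any coverage within 3 kb. Over the 40, no library had a peak closer than 1957 bp.

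Covered length was larger in WT, as it was at promoters in general. Averaged over all 249 promoters it was 2121, 2085 and 1394 bp in WT and 1348, 1200 and 1134 bp in KO, with means of 1866 ± 410 and 1228 ± 110 bp (SD, n = 3 each). The genotypes did not overlap, the difference of 639 bp giving the smallest p of the design (exact permutation test, p = 0.1, adjusted p = 0.2). Against WT replicate 3 alone the KO libraries were shorter by 166 bp. Divided by the mean over all other protein-coding promoters in the same library, covered length was 0.935, 0.930 and 0.979 in WT and 0.959, 0.960 and 0.962 in KO. This relative covered length overlapped between genotypes, with a WT minus KO difference of -0.0126 (exact permutation test, p = 0.4, adjusted p = 0.4). The size of this difference rested on single libraries. It was -0.0280 without WT replicate 3, where the genotypes no longer overlapped, -0.00604 without WT replicate 1 and -0.00374 without WT replicate 2 (exact permutation p = 0.1, 0.7 and 0.7). The difference was -0.187 when peaks under a fold enrichment of 4 were dropped (exact permutation p = 0.6), a cut that falls unequally on the lists. Its sign was the reverse, 0.0473, with covered length read within 1 kb (exact permutation p = 0.1).

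Promoter by promoter, 101 of the 210 with any coverage (48.1%) had all 3 WT values above all 3 KO values, against 50.8% of all covered promoters. In 0 of 210 all KO values were above all WT values, against 0.111%. Leaving out WT replicate 3 raised the first count to 192, and leaving out KO replicate 1 raised it to 161. WT replicate 3 was above every KO library at 115 promoters (54.8%), against 54.4% of all promoters with coverage in these libraries, and every KO library was above WT replicate 3 at 7 (3.33%), against 2.53%. All 4 shares lay near the background of all promoters. Of the 199 promoters called in every library, 198 (99.5%) had a higher mean in WT, ZNF799 being the exception by -15.7 bp. The same was true of 99.5% of the 12837 other promoters called in every library.

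The largest separated differences were found at 5 promoters. ZNF473, which encodes a protein of histone pre-mRNA processing, had 4598, 4195 and 2643 bp in WT and 2422, 2209 and 2190 bp in KO. ZNF460 had 3933, 3730 and 2721 bp in WT and 2055, 2048 and 1987 bp in KO. At ZNF584 the values were 3884, 3705 and 2819 bp in WT and 2276, 2010 and 1927 bp in KO. At these 3 promoters WT replicate 3 lay 221, 666 and 543 bp above the highest KO library. ZNF57 (3820, 3536 and 1727 bp in WT, 1594 to 1664 bp in KO) and ZNF792 (3764, 3088 and 1584 bp in WT, 1355 to 1577 bp in KO) followed, and there WT replicate 3 led the highest KO library by only 63 and 7 bp. For a single promoter the exact permutation p was 0.1 in all 5 and cannot be lower. These differences, between 1357 bp (ZNF792) and 1538 bp (ZNF473), lay mostly beyond 1 kb from the 5′ end. Within 1 kb they were 178, 68.3, 40, 264 and 352 bp for ZNF473, ZNF460, ZNF584, ZNF57 and ZNF792, and the genotypes then overlapped at ZNF584 and ZNF792 (exact permutation p = 0.4 and 0.3). With only peaks of fold enrichment of at least 4 the genotypes overlapped at ZNF460, where the difference fell to 524 bp, and at ZNF473 (exact permutation p = 1 and 0.5). This cut falls unequally on the lists.

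In the other direction every KO library exceeded WT replicate 3 most at ZNF582, with 1022 bp in WT replicate 3 and 1337, 1261 and 1170 bp in KO, a lead of 148 bp. There WT replicates 1 and 2 had 1741 and 1673 bp, above all KO libraries. ZNF536 and ZNF528 followed with leads of 77 and 65 bp. The 3 largest leads of WT replicate 3 over every KO library were all larger than these.

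By cluster, relative covered length was lowest in cluster 4, at 0.279 ± 0.105 in WT and 0.267 ± 0.0439 in KO, and highest in cluster 9, at 1.41 ± 0.0484 and 1.51 ± 0.0160 (SD, n = 3 each). Cluster 9 holds the longest-marked member, ZNF581, with 5290, 5144 and 3757 bp in WT and 3817, 4093 and 3851 bp in KO. In 3 clusters the genotypes did not overlap. Clusters 7 and 9 were higher in KO, by differences (WT minus KO) of -0.0729 and -0.0921, and cluster 10 was higher in WT, by 0.0408 (exact permutation test, p = 0.1 each, adjusted p = 0.333 over 10 clusters). In the remaining 7 clusters the genotypes overlapped. None of the differences passed the test, which at this size none could.

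**Figure D4:**
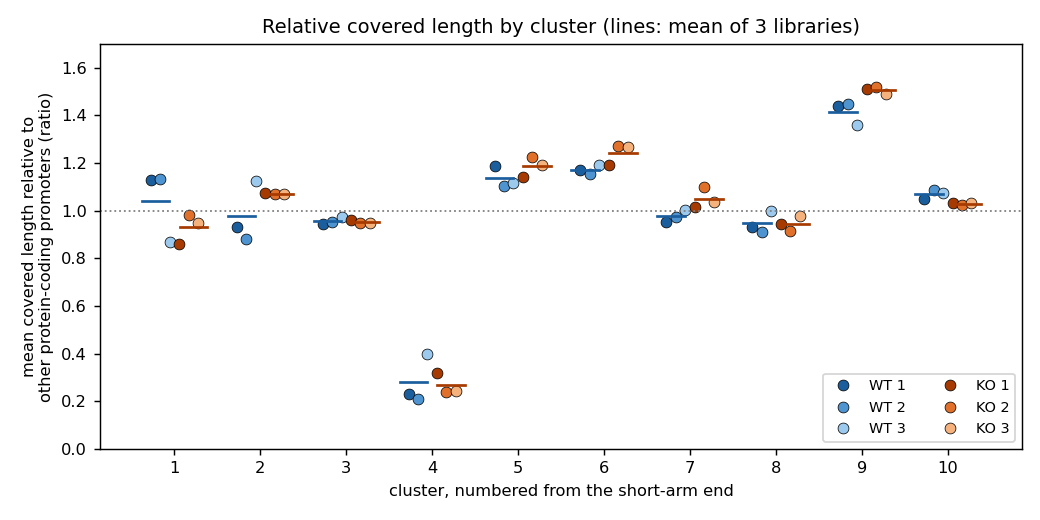
Mean covered length of the ZNF promoters of each cluster divided by that of all other protein-coding promoters in the same library (vertical axis, ratio; the dotted line is 1), 1 point per library, blue for WT and orange for ZBTB48 KO; short lines are means of 3 libraries. Cluster 4 lies between 0.209 and 0.400 and cluster 9 between 1.36 and 1.52, with WT below KO in clusters 7 and 9 and above it in cluster 10.

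Of the 9 members listed for known roles all but ZNF93 were called in every library. So were 79.9% of all ZNF promoters of the chromosome and 65.1% of all protein-coding promoters. ZNF274, which directs SETDB1 to the 3′ ends of ZNF genes, had 2595, 2845 and 1886 bp in WT and 1923, 1905 and 1807 bp in KO. ZNF524, another telomere-binding zinc finger protein, had 4689, 4021 and 2110 bp in WT and 3042, 1987 and 1951 bp in KO. In both the genotypes overlapped. ZNF224, a KRAB repressor, overlapped as well, with 2686, 2440 and 1820 bp in WT and 1771 to 1978 bp in KO. Genotypes did not overlap at the imprinted gene ZNF331 (1193 to 2009 bp in WT, 1085 to 1188 bp in KO) or at ZNF350 (1468 to 2178 bp in WT, 945 to 1198 bp in KO). The same held for ZNF568 (2066 to 3307 bp in WT, 1513 to 2033 bp in KO) and for ZNF808, a gene of pancreas development (1719 to 3033 bp in WT, 1170 to 1700 bp in KO). Such separation, with WT above KO, was present at 48.1% of covered ZNF promoters of the chromosome and 50.8% of all covered promoters. WT replicate 3 led the highest KO library by 270 bp at ZNF350 and by 5, 33 and 19 bp at ZNF331, ZNF568 and ZNF808.

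The peaks sat mostly downstream of the 5′ end. Where a peak covered it, the median reach was 458 to 982 bp upstream and 889 to 1598 bp downstream, depending on the library. At other protein-coding promoters the reach was 582 to 1236 bp upstream and 1028 to 2011 bp downstream. Within each list, ZNF promoter peaks ranked differently in the 2 kinds of list. By fold enrichment their median percentile was 63.4 and 65.1 in WT replicates 1 and 2, below the 73.2 and 73.6 of other promoters. In WT replicate 3 and the KO libraries it was 76.2 to 76.9, above the 51.0 to 58.2 of other promoters. In cluster 4 the contrast was wider, with 37.1 and 33.1 in WT replicates 1 and 2 and 68.8 to 80.5 in the other 4 libraries. What part the kind of list has in this was not tested.

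Promoters shared with a neighbour were marked throughout. For 36 ZNF genes the 5′ end of another protein-coding gene lay within 1 kb, and all 36 were called in all 6 libraries, against 90.2% of 2780 other protein-coding genes with such a neighbour. Among the 213 without such a neighbour 163 (76.5%) were called in all 6 and 40 (18.8%) in none, against 60.8% of other genes without one called in all 6. A window can then hold the neighbour's peak, so these calls cannot be given to either gene. In 7 pairs both genes were ZNF genes of the chromosome, for example ZNF490 and ZNF791 with 5′ ends 107 bp apart and ZNF829 and ZNF568 with 41 bp. The 3′ ends were almost free of the mark. Of 204 members whose 3′ end lay clear of any protein-coding 5′ end by 3 kb, WT replicates 1 and 2 had a peak within 1 kb at 2, and the other 4 libraries at 0. The genes were ZNF175 and ZNF579 in both libraries, and the WT minus KO difference of 1.33 did not pass (exact permutation test, p = 0.4, adjusted p = 0.4). Among 13023 other genes 1.68% to 2.72% had a peak at a clear 3′ end.

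RefSeq promoters of 300 bases (250 before to 50 after the 5′ end) were matched by symbol for 218 of the 249 genes. In 198 of the 218 the 5′ base was the same as in GENCODE, and in the rest the sequence may belong to another start than the one called. Promoters called in all 6 libraries (178 with sequence) had a median of 22 CpG (quartiles 17 and 27) and 61.0% GC. Those not called in all 6 (40 of 50 with sequence) had a median of 13 CpG (10 and 16.5) and 56.2% GC. Cluster 4 supplies 28 of those 50. The 22 outside it (20 with sequence) had a median of 17 CpG. For cluster 4 by itself only 29 of 37 genes had an entry, under the 80% needed, so the check is void there. A set of 5 short motifs, none of which contains another, was searched on both strands. The CCAAT box was held by 50% of promoters called in all 6 and 72.5% of the others (45% of those outside cluster 4), against 36.6% of the 15366 RefSeq promoters matched to any protein-coding gene. For CCGGAA, the core of ETS factor sites, the shares were 53.4% and 67.5%, against 23.1%. GCGCATG, the core bound by NRF1, was held by 6.18% and by 0 of 40, against 5.84% of all. The shares were also 6.18% and 0 of 40 for ACTACAA, part of the ZNF143 site, against 3.22%. TTAGGG, the telomeric repeat that ZBTB48 binds, was held by 7.87% and 7.50%, against 8.71%. The RefSeq promoters cover 76.7% of all protein-coding genes, too few for a comparison by the same limit. All 6 printed stretches hold CCAAT, and all but ZNF93 hold CCGGAA.

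The corepressors through which KRAB zinc finger proteins act were marked in every library. All 12 of the list (TRIM28, SETDB1, ATF7IP, CBX1, CBX3, CBX5, MPHOSPH8, TASOR, PPHLN1, MORC2, ATRX and DNMT1) were called in 6 of 6 libraries, against 65.1% of all protein-coding promoters. Of the 12, 6 had WT values all above KO values, near the 50.8% of all covered promoters. TRIM28, itself on chromosome 19, had 3966, 4030 and 2533 bp in WT and 2784, 1877 and 1828 bp in KO. SETDB1 had 2176, 2138 and 1551 bp in WT and 1614, 1457 and 1283 bp in KO, the genotypes overlapping in both. For the list the median KO covered length was 69.0% of WT, against 67.1% over the 199 ZNF promoters called in all libraries and 65.1% over other promoters called in all. ZBTB48 itself, on chromosome 1, kept a peak in the KO clones, with 3161, 3330 and 1821 bp in WT and 1855, 1555 and 1241 bp in KO. A peak at the promoter does not check the knockout, because the mark can stand on a gene whose product is lost.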

How the data were processed

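H3K4me3 ChIP-seq was performed on U2OS clones, 3 WT and 3 ZBTB48 KO. Following the study's methods section, reads were trimmed, then aligned to GRCh38 with Bowtie2 2.3.5.1, and freed of multimapping, unmapped and duplicate ones, and the authors called broad peaks per library with MACS2 2.1.1.2. Each list deposited by the authors gives the ratio of ChIP signal to background (fold enrichment), −log10 p, −log10 q and a display score for every peak. The deposited score was not used.

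Autosomal, X and Y peaks were set on GENCODE release 44, which has the same build. For 245 of the members the 5′ end was that of the MANE Select transcript, and for 4 that of the Ensembl canonical one. Genotypes were compared by exact permutation of libraries (20 assignments), and gene sets by exact sign flips over the 6 libraries (64 assignments). The members, lists and rules were chosen with earlier results of these data known. Genes were named where calls or covered length separated the genotypes most (5 in each direction), where WT replicate 3 and the KO libraries differed most (3 in each direction), as ends and longest member of clusters, where no library called them, and for known roles. Members called in 1 to 5 libraries were added after their values were seen. Words of 100 bases were counted on both strands of GRCh38 after the calls in cluster 4 were seen. Calling and covered length were tested on simulated lists. Python 3.11.15 with numpy 2.4.6 was used. The permutation p-values of genotype measure the spread between these clones. Those of the gene sets and clusters, by sign flips, show only stability over libraries that read the same promoters.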

Additional observations from a re-analysis of the deposited data

How the results depend on the processing

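The alternatives were peaks of −log10 q from 3 up, peaks of fold enrichment from 4 up, lists cut to 21712 peaks each, 500 bp of overlap, exchanged windows, any annotated 5′ end, members without hyphenated symbols (246), 1 member per group within 1 kb (242), cluster gaps of 250 kb and 1 Mb, each library left out, the replicate number as a block, WT replicate 3 against the KO libraries, and members outside cluster 4 (added after the calls were seen). Of 449 recomputed values 397 were counted as unchanged. Tested values had to keep their direction and their side of the 0.05 threshold, and untested ones to move within the spread between clones. Counts had to stay of like size. The genotype tests cannot go below 0.1, so for them the side of the threshold was fixed in advance. The number unchanged is for this reason no measure of how robust the genotype differences are. The cut at a fold enrichment of 4 removes unlike shares of the lists, so it is not a like filter of all libraries. The relative covered length reversed to 0.0473 with exchanged windows. The difference from ZNF genes on other chromosomes reversed to 2.305 percentage points at fold enrichment of at least 4 and to 2.97 outside cluster 4. The number of clusters whose genotypes did not overlap, 3, became 0 at fold enrichment of at least 4, 1 with a gap of 1 Mb, and 3 to 7 with a library left out (7 without WT replicate 3). WT-only promoters numbered 1 with 500 bp of overlap (ZNF114) and 0 to 2 with a library left out. Promoters with all WT above all KO values numbered 102 to 192 with a library left out, and the reverse 0 to 2. With 5 libraries the sign-flip test cannot go below 0.0625. The difference from other chromosome 19 promoters was then 18.1 to 18.9 percentage points, that from ZNF genes on other chromosomes -6.39 to -5.75, and that of cluster 4 -61.6 to -59.3. WT replicate 3 was also set against the KO libraries, with no test. The differences were 7.67 promoters called, 166 bp covered, 0.0182 in relative covered length and 0 calls at 3′ ends. There were 8 clusters without overlap and 5 promoters called in WT replicate 3 and in no KO library. At 7 promoters every KO library was above WT replicate 3. With 1 library against 3, no overlap means only that the single library is the highest or the lowest. Leaving out a library also makes the condition easier to meet. The counts of 3, 7 and 8 clusters are therefore not on one scale. For the 5 promoters no share over all promoters was counted. The cause of these changes was not tested beyond the number of libraries each leaves.

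The deviations of same-numbered libraries from their genotype means correlated by 0.175, -0.0442 and 0.299 over all promoters and by 0.239, 0.178 and 0.195 over the ZNF promoters. All 3 pairs thus correlated by over 0.1 in the latter and not in the former, no label gives the numbers a meaning, and values are given without and with the block. With the replicate block, 8 assignments and a smallest p of 0.25, the exact sign-flip p was 0.5 for the 3.67 promoters called, and 4 clusters had the same sign in all 3 numbers. It changed no other call, and with a smallest p of 0.25 it could not make a genotype test pass. Depth limits all calls, and a promoter without a peak may carry a mark too weak to be called.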
